A study of Rattus norvegicus with 6 samples.

Results

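The breakdown of leucine, isoleucine and valine was followed through 10 genes of the pathway, Bcat2, Bckdha, Bckdhb, Bckdk, Dbt, Ivd, Hibadh, Mccc2, Pccb and Aldh6a1, out of 10411 genes named on the arrays. Members were chosen by pathway role, and every probe set that the platform annotation gives to exactly 1 of them was used. That gave 11 probe sets, 2 of them for Aldh6a1, and none was shared with another gene. The 10 genes lie on 6 chromosomes of the GRCr8 rat assembly, 3 of them on chromosome 1 (Bcat2, Bckdha at chr1:90266731-90295521 and Bckdk at chr1:191945809-191950480) and 2 on chromosome 2 (Mccc2 at chr2:33039044-33110092 and Dbt at chr2:207166660-207195528). All 11 lay above the filter on dim signals, a mean signal of 105.8, and the dimmest had a mean of 458. Signals came from the left costal hemidiaphragm of 6 male Wistar rats, with 1 Affymetrix RAE 230A array per rat. The 3 diabetic rats had received streptozotocin, which kills insulin-making cells of the pancreas, at 60 mg/kg into the peritoneum at 8 weeks of age. The 3 normal rats had received buffer alone. Muscle was taken 4 weeks later from both groups after an overnight fast, and no rat was given insulin, so both groups share the fasted state.

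Skeletal muscle is a main site of the opening steps of branched-chain amino acid breakdown, since liver has little of the transaminase. Mitochondrial branched-chain aminotransferase removes the amino group, and the branched-chain ketoacid dehydrogenase complex then commits the carbon skeleton to oxidation. A dedicated kinase switches that complex off by phosphorylation and a phosphatase switches it on, which arrays do not measure. The skeletons of leucine, isoleucine and valine then part, and they end as acetyl-CoA, ketone bodies or propionyl-CoA.

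None of the 11 probe sets passed limma's test of diabetic against normal diaphragm at an adjusted p under 0.05, where 3.3% of the 9519 probe sets tested were higher in diabetic muscle, 3.48% were lower and 6.78% passed in either direction. Fewer cells of a type and less RNA per cell cannot be told apart in whole muscle. At an unadjusted p under 0.05 there were 2, Bckdha and Mccc2, against 23.9% of all probe sets tested. The log2 fold change, which is diabetic minus normal throughout, was above 0 for 3 probe sets and below 0 for 8. Its median was -0.12 over the 11 probe sets and 0.0034 over all those tested. Groups did not overlap for Bckdha, where all diabetic rats were higher, and for Mccc2, where all were lower. Over all probe sets tested, 15.2% were without overlap and higher, 14.4% without overlap and lower, and 29.6% without overlap in either direction. The 95% interval of the log2 fold change held 0 for 9 probe sets, and it reached a doubling or a halving for 1, that of Dbt.

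**Figure D1:**
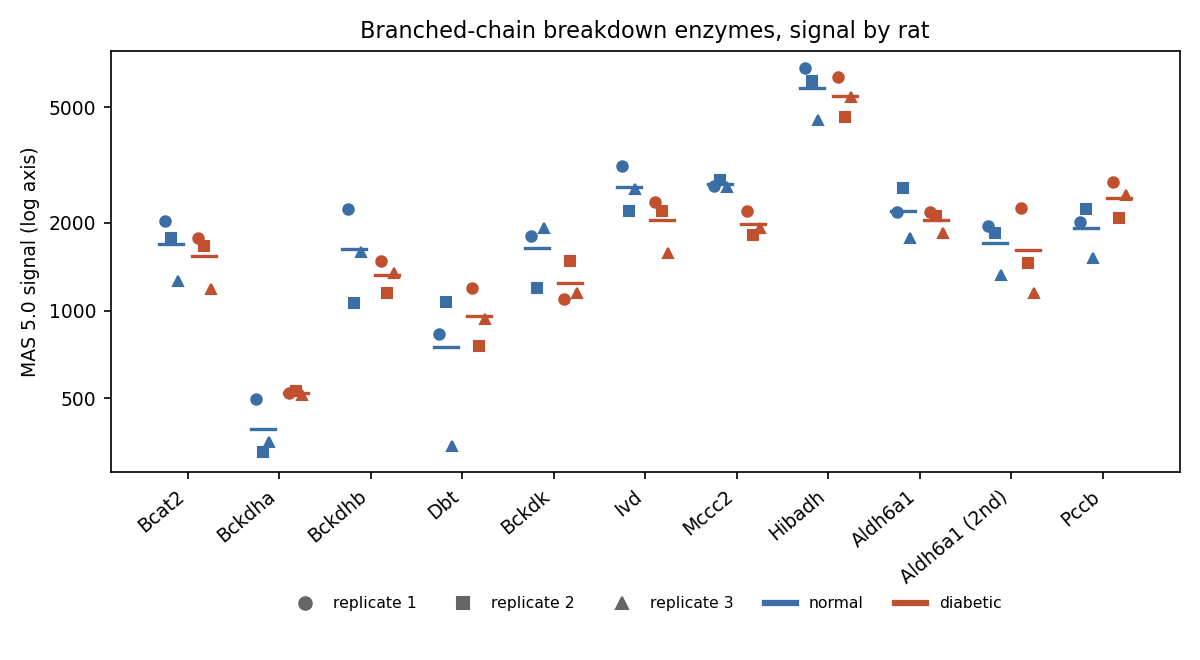
MAS 5.0 signal, on a log axis, of the 11 probe sets in the order of the pathway, with normal rats in blue and diabetic rats in orange. Each point is 1 rat, its shape gives the replicate number and each line is the mean of 3. The groups are apart for Bckdha, from 514.0 to 530.2 in diabetic rats against at most 497.5 in normal rats, and for Mccc2. Heights compare rats within a column, not genes with each other.

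Bcat2 encodes the mitochondrial transaminase that starts the pathway. Its signal was 2029.0, 1778.5 and 1259.4 in normal replicates 1 to 3, and 1781.1, 1664.6 and 1186.1 in diabetic replicates 1 to 3. Replicate 3 was the lowest of each group and the ranges overlapped over most of their length. The means were 1689 ± 393 (SD, n = 3) and 1544 ± 315 (SD, n = 3), with a log2 fold change of -0.12 (95% interval -0.60 to 0.36, limma's adjusted p = 0.78).

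The ketoacid dehydrogenase complex is built from a decarboxylase of alpha and beta chains, encoded by Bckdha and Bckdhb, and a transacylase core encoded by Dbt. Bckdha had signals of 497.5, 327.9 and 355.1 in normal muscle and 521.7, 530.2 and 514.0 in diabetic muscle. The diabetic rats lay close together, with a coefficient of variation of 1.55% against 23.1% in normal rats, and normal replicate 1 came nearest to them. At a log2 fold change of 0.43 (95% interval 0.02 to 0.85) the gene did not pass by limma (adjusted p = 0.19).

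Bckdhb, whose protein pairs with that of Bckdha, had signals of 2239.7, 1064.3 and 1590.9 in normal and 1482.2, 1147.7 and 1352.1 in diabetic muscle. All diabetic values lay inside the normal range, and the log2 fold change was -0.24 (95% interval -0.78 to 0.30, limma's adjusted p = 0.60). Dbt had signals of 831.4, 1074.5 and 343.1 in normal and 1192.4, 756.7 and 936.5 in diabetic muscle. Normal replicate 3 stood lowest by a wide margin. With all arrays limma gave a log2 fold change of 0.49 (95% interval -0.31 to 1.29, adjusted p = 0.46), and without normal replicate 3 it gave 0.00. It gave 0.82 without normal replicate 2 and 0.32 without diabetic replicate 1.

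Bckdk encodes the kinase that inactivates the complex. Its signal was 1803.4, 1197.1 and 1920.1 in normal and 1093.9, 1484.5 and 1151.9 in diabetic muscle. Normal replicate 2 fell within the diabetic range, so the groups overlapped. The means were 1640 ± 388 (SD, n = 3) and 1243 ± 211 (SD, n = 3), a log2 fold change of -0.38 (95% interval -0.84 to 0.08, limma's adjusted p = 0.29). It was -0.59 without normal replicate 2 and -0.25 without normal replicate 3. Ppm1k, the phosphatase that reverses the kinase, had a log2 fold change of -0.07 (95% interval -0.43 to 0.28, limma's adjusted p = 0.82).

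Below the complex, Ivd encodes the leucine-specific dehydrogenase of isovaleryl-CoA. Its signal was 3127.3, 2197.6 and 2617.3 in normal and 2362.8, 2197.6 and 1582.2 in diabetic muscle, where the lowest normal value equalled the middle diabetic one. The log2 fold change was -0.38 (95% interval -0.81 to 0.05, limma's adjusted p = 0.27), and it was -0.20 without diabetic replicate 3 and -0.25 without normal replicate 1. Mccc2 encodes the chain of methylcrotonyl-CoA carboxylase that pairs with the biotin-bearing Mccc1 chain in the next leucine step. Its signal was 2684.4, 2807.9 and 2659.4 in normal and 2199.3, 1815.8 and 1922.7 in diabetic muscle. The 3 normal rats lay within a narrow band above all diabetic rats, at 2717 ± 79.5 (SD, n = 3) against 1979 ± 198 (SD, n = 3), a ratio of 0.728. On the log2 scale the difference was -0.46 (95% interval -0.78 to -0.15), short of the threshold (limma's adjusted p = 0.081, and 0.066 to 0.22 over the alternatives tried). Mccc1 had a log2 fold change of -0.05 (95% interval -0.43 to 0.33, limma's adjusted p = 0.89); the difference between both chains was not tested.

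On the valine branch, Hibadh encodes the dehydrogenase of 3-hydroxyisobutyrate. Its signal was 6784.0, 6159.5 and 4515.1 in normal and 6324.8, 4619.0 and 5404.3 in diabetic muscle, with all diabetic values inside the normal range. The log2 fold change was -0.09 (95% interval -0.50 to 0.33, limma's adjusted p = 0.82). Aldh6a1 encodes the semialdehyde dehydrogenase that follows and releases propionyl-CoA. Its brighter probe set had signals of 2178.4, 2635.5 and 1779.8 in normal and 2187.5, 2119.6 and 1841.4 in diabetic muscle. The dimmer one had 1957.9, 1848.1 and 1323.5 in normal and 2245.5, 1454.8 and 1151.0 in diabetic muscle. Both differences were small, with log2 fold changes of -0.09 (95% interval -0.47 to 0.30) and -0.12 (95% interval -0.66 to 0.43) and adjusted p-values of 0.81 and 0.82 from limma.

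Pccb encodes a chain of propionyl-CoA carboxylase, which takes up the propionyl-CoA that valine and isoleucine leave. Its signal was 2021.3, 2230.3 and 1513.0 in normal and 2762.9, 2073.3 and 2492.5 in diabetic muscle. Diabetic replicate 2 lay within the normal range and the other diabetic rats lay above it. The log2 fold change was 0.36 (95% interval -0.05 to 0.76, limma's adjusted p = 0.27), and 0.19 without normal replicate 3. Its partner chain Pcca had a log2 fold change of -0.30 (95% interval -0.79 to 0.19, limma's adjusted p = 0.45), and the difference between these chains was not tested.

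**Figure D2:**
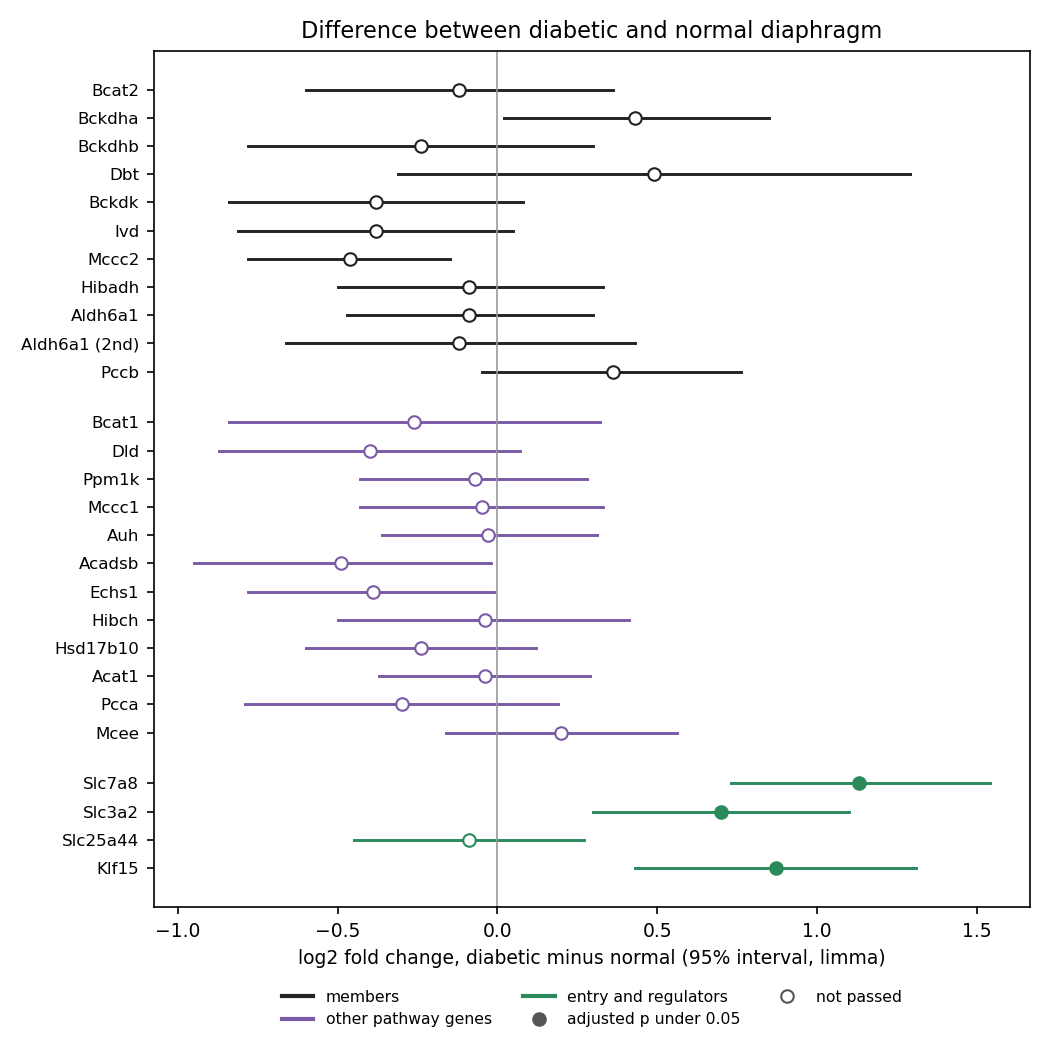
Log2 fold change of each probe set, diabetic minus normal, with its 95% interval from limma, for the members in black, other genes of the pathway in purple and transport and regulator genes in green. Filled points passed at an adjusted p under 0.05, and they are Slc7a8, Slc3a2 and Klf15. Among the members the interval lies to the right of 0 for Bckdha and to the left of 0 for Mccc2, and neither passed after adjustment.

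Members did not share 1 order of the rats within a group. Normal replicate 3 was the lowest normal array for 7 of 11 probe sets, where 35% of all probe sets tested were lowest there. Normal replicate 2 was the lowest for the other 4, those of Bckdha, Bckdhb, Bckdk and Ivd, against 33.4% of all. In the diabetic group 5 of 11 were lowest on replicate 3 (39.4% of all), 5 on replicate 2 (26.5% of all) and 1, that of Bckdk, on replicate 1. These counts hold Aldh6a1 once for each of its 2 probe sets. The arrays also differed in the ratio of the 3′ to the 5′ GAPDH control signal, computed here from the deposited values of the control probe sets, which rises as transcripts are shortened. It was 2.71, 4.02 and 1.27 in normal replicates 1 to 3, and 2.91, 1.49 and 4.0 in diabetic replicates 1 to 3. The same ratio for beta-actin was 1.17 to 2.27 over the 6 arrays. With the log2 of the GAPDH ratio as a covariate no member passed limma's test, the lowest adjusted p being 0.066, that of Mccc2. Its part in the order of the arrays was not tested.

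Over 12 further tested genes of the pathway, none passed limma's test in either direction. Their log2 fold changes ran from -0.49 to 0.20 with a median of -0.16, and 11 of 12 were below 0. At an unadjusted p under 0.05 there were 2, Acadsb and Echs1, against 23.9% of all probe sets tested. Acadsb, the dehydrogenase of the isoleucine branch, had a log2 fold change of -0.49 (95% interval -0.95 to -0.02, limma's adjusted p = 0.19). Echs1, a hydratase shared with fatty acid oxidation, had signals of 3405.6, 2693.3 and 2306.6 in normal and 2289.2, 1886.2 and 2165.4 in diabetic muscle. Its groups did not overlap, with diabetic rats lower, as for 14.4% of all probe sets tested. Its log2 fold change was -0.39 (limma's adjusted p = 0.20). Dld, the dehydrogenase chain that the complex shares with pyruvate dehydrogenase, had a log2 fold change of -0.40 (limma's adjusted p = 0.28). The remaining genes were Bcat1, Auh, Hibch, Hsd17b10, Acat1 and Mcee. Of 5 tested genes that serve the enzymes with cofactors or take up their electrons (Etfa, Etfb, Etfdh, Lias and Mmaa), none passed, and the log2 fold changes ran from -0.15 to 0.18.

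Of 4 tested genes for entry into the pathway or its regulation, 3 were higher in diabetic diaphragm. Whether their differences exceeded those of the enzymes was not tested. Slc7a8, which encodes a plasma membrane exchanger of large neutral amino acids, had signals of 202.7, 270.4 and 215.4 in normal and 455.2, 482.4 and 567.4 in diabetic muscle. Every diabetic rat was higher than every normal rat. The signal rose 2.19-fold, with a log2 fold change of 1.13 (95% interval 0.73 to 1.54, limma's adjusted p = 0.0067), and it passed whichever array was dropped. Slc3a2 encodes the heavy chain that carries such exchangers to the membrane. Its signal was 1485.6, 1060.0 and 1080.9 in normal and 1821.0, 1765.1 and 2260.6 in diabetic muscle. It rose 1.61-fold without overlap (log2 fold change 0.70, 95% interval 0.30 to 1.10, limma's adjusted p = 0.046). Slc25a44, the mitochondrial carrier of branched-chain amino acids, had a log2 fold change of -0.09 (95% interval -0.45 to 0.27, limma's adjusted p = 0.78). Slc7a5, a related exchanger, lay below the filter and was not tested, with signals from 15.8 to 78.5.

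Klf15, a transcription factor known to act on Bcat2 and other genes of amino acid breakdown in muscle, had signals of 2302.3, 1921.0 and 1373.1 in normal and 3343.7, 2943.9 and 3774.6 in diabetic muscle. It rose 1.80-fold without overlap (log2 fold change 0.87, 95% interval 0.43 to 1.31, limma's adjusted p = 0.029). When single arrays were dropped, Klf15 and Slc3a2 both passed without normal replicate 1 and missed the threshold in the other 5 cases, with highest adjusted p-values of 0.091 and 0.14. Across these cases the log2 fold change stayed between 0.67 and 1.04 for Klf15 and between 0.59 and 0.86 for Slc3a2. Over all 16 alternatives Klf15 passed in 8 and Slc3a2 in 6. Both missed with no filter on dim signals, with no trend in the variance prior and with the replicate number as a block (adjusted p = 0.07 for Klf15 and 0.093 for Slc3a2 from limma). Slc3a2 also missed with array weights (adjusted p = 0.079 from limma) and after scaling to the same median (adjusted p = 0.063 from limma). For Bcat2 beside it, the 95% interval of the ratio of diabetic to normal signal, on the back-transformed log2 scale, was 0.658 to 1.28.

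**Figure D3:**
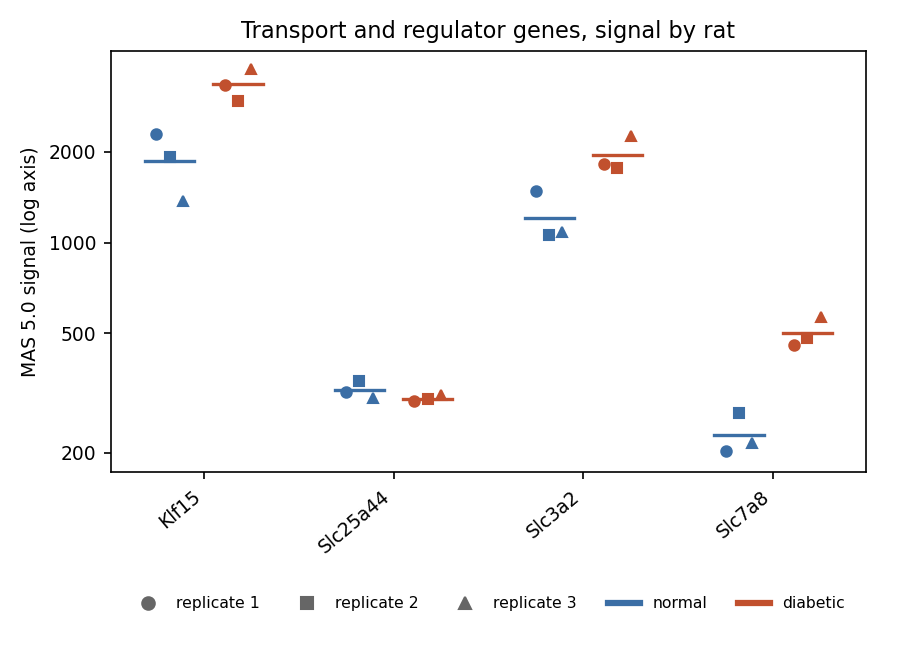
MAS 5.0 signal, on a log axis, of the 4 tested transport and regulator genes, with normal rats in blue and diabetic rats in orange. Each point is 1 rat and each line the mean of 3. Diabetic rats lie above normal rats for Klf15, Slc3a2 and Slc7a8, and the groups overlap for Slc25a44.

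Krüppel-like factors bind CACCC boxes. The 250 bases before the start given for each RefSeq promoter were therefore searched for CACCC on both strands, which reads as GGGTG on the other. RefSeq promoters of the GRCr8 assembly were at hand for 8 members, Bcat2, Bckdhb, Bckdk, Dbt, Ivd, Hibadh, Pccb and Aldh6a1. All 8 held the box, 5 of them once and 3 of them 2 times, and 49.2% of all 33469 promoters held it. Whether members held it more often than other genes was not tested. No promoter was at hand for Bckdha and Mccc2, the members at an unadjusted p under 0.05 by limma. None of the 8 genes searched passed limma's test above. The sequences of the transaminase, the transacylase core and the kinase are shown because they cover the entry step, the committing complex and its inhibitor. Each runs 5′ to 3′ on the gene's own strand, which is the plus strand for all 3, and capitals mark the boxes. They lie at chr1:105178889-105179138, chr2:207166410-207166659 and chr1:191945559-191945808 in the order given. The Bcat2 window lies inside the gene's annotated span (chr1:105175157-105196474), downstream of its first base, and those of Dbt and Bckdk end at the base before the gene. The Pccb window, on the minus strand at chr8:110520187-110520436, overlaps that gene's annotated span (chr8:110470197-110520222), and its box lies in the overlap. A match is a run of letters and no measurement of binding.
Bcat2: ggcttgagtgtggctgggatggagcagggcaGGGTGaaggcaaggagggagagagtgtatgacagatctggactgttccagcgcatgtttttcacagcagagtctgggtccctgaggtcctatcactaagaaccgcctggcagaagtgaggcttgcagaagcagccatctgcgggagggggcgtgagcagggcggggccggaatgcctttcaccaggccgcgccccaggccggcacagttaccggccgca
Dbt: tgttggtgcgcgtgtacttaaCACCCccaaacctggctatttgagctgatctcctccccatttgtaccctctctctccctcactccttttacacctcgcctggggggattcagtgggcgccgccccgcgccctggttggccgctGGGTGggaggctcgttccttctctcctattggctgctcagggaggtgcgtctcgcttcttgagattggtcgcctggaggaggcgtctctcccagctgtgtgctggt
Bckdk: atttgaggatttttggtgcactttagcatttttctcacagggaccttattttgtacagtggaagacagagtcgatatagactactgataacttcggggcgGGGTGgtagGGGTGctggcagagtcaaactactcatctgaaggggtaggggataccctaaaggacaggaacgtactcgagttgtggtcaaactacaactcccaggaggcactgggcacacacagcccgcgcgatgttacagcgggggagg

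Related mitochondrial lists are given by count and median, since no test over a list was made. Of 12 tested genes of the tricarboxylic acid cycle, limma's test called 1 lower and 0 higher, and the other 11 were short of the threshold. All 12 had a log2 fold change below 0, with a median of -0.38. Groups were apart and lower for 7, against 14.4% of all probe sets tested. These counts take the brightest probe set of each gene. For Cs, among the 7, the groups overlapped on its other probe sets (log2 fold changes -0.22 and -0.08). The second probe set of Sdhd was also lower without overlap. The gene that passed was Idh3a, the catalytic chain of isocitrate dehydrogenase, with a ratio of diabetic to normal mean of 0.558 (limma's adjusted p = 0.031). It missed the threshold without normal replicate 1, normal replicate 3, diabetic replicate 2 or diabetic replicate 3 (highest adjusted p = 0.11). Of 10 tested genes of fatty acid beta-oxidation, limma's test called 2 higher and 0 lower, with a median of 0.37. They were Decr1 and Eci1, enzymes for unsaturated fatty acids, at 2.23-fold and 1.92-fold (adjusted p = 0.016 and 0.038 from limma). Decr1 missed without diabetic replicate 3 (adjusted p = 0.056), and Eci1 passed without normal replicate 1 and missed in the other 5 cases (highest adjusted p = 0.12). The median of the 10 member genes, at -0.10, lay between those of both lists. It was 0.02 without normal replicate 1, -0.24 without normal replicate 3, -0.22 without diabetic replicate 1 and -0.05 without normal replicate 2 or diabetic replicate 3.

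Of 10 tested genes of the sister dehydrogenase complexes for pyruvate and oxoglutarate, which do not include Dlat (not analysed here), none passed. Their median was -0.31, with 7 log2 fold changes below 0 and 3 above, those of Pdk1, Pdk2 and Pdk4. At an unadjusted p under 0.05 by limma there were 6, Pdk4 among them, against 23.9% of all probe sets tested. Pdk4, like Pdk1, Pdk2 and Pdk3 a pyruvate dehydrogenase counterpart of Bckdk, was picked after its values were seen. Its signal was 7790.5, 4461.8 and 2853.9 in normal and 9144.3, 9722.4 and 10301.3 in diabetic muscle. The groups did not overlap, and its log2 fold change was 1.07 (95% interval 0.43 to 1.71, limma's adjusted p = 0.054). On their brightest probe sets, Pdk1 and Pdk2 had log2 fold changes of 0.35 and 0.07 (limma's adjusted p = 0.26 and 0.83). Pdk3 lay below the filter and was not tested. The difference between Pdk4 and Bckdk was not tested.

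**Figure D4:**
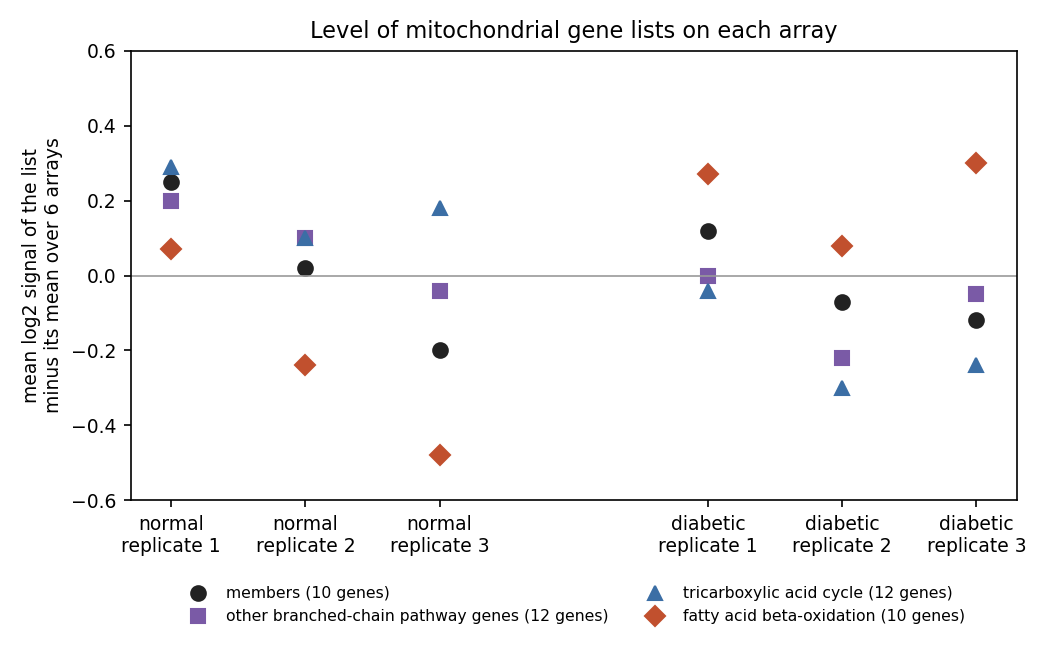
Mean log2 signal of each gene list on each array, minus its mean over the 6 arrays, with normal rats on the left and diabetic rats on the right. Member genes, in black, ranged from -0.20 to 0.25 in normal and from -0.12 to 0.12 in diabetic rats. The tricarboxylic acid cycle list was at 0.10 or more in normal and at -0.04 or less in diabetic rats, and beta-oxidation genes were lowest on normal replicate 3, at -0.48.

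Median signals were 167.1 to 180.5 over the 6 arrays. Markers of skeletal muscle were bright, and 2 of 12 tested genes were lower in diabetic diaphragm, Myh4, a fast myosin heavy chain, and Mb, myoglobin. Of these 12 markers 11 had a log2 fold change below 0, with a median of -0.22. The summed signal of that list was 250224 to 286864 in normal and 198338 to 278353 in diabetic rats. All 8 hepatocyte markers lay below the filter, Alb among them, with sums of 313 to 661 in normal and 268 to 317 in diabetic rats. Of 5 adipocyte markers on the arrays, Lep and Plin1 lay below the filter and none of 3 tested genes passed, with sums of 17246 to 22688 and 19674 to 24320. These sums mostly follow Lpl, at 11405.5 to 15033.4 in normal and 13285.2 to 17256.7 in diabetic rats. None of 4 tested macrophage markers and none of 2 tested red blood cell markers passed. Macrophage sums were 4691 to 5582 and 4820 to 6023, and red blood cell sums were 14441 to 17258 and 15651 to 26823. Of 4 tested endothelial markers, Kdr was higher and Tie1 lower, with sums of 2508 to 2648 in normal and 2877 to 3140 in diabetic rats. Of 4 tested smooth muscle markers, Acta2 and Smtn were lower, with sums of 2549 to 3375 and 1836 to 2431. The part of these shifts in the results above was not tested.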

How the data were processed

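Total RNA of 3 normal and 3 diabetic diaphragms was hybridized to Affymetrix RAE 230A arrays. The deposited values are MAS 5.0 signals made by the authors, an intensity on a linear scale for each probe set, whose target scaling is not given in the sources used here. A floor of 1 replaced 136 lower values before the log2 transform, and arrays were not normalized again. Left out were 57 control probe sets and those whose mean did not exceed the 40th percentile. limma 3.58.1 in R 4.3.3 then fitted the remaining 9519 with lmFit and eBayes, a trend in the variance prior and Benjamini-Hochberg adjustment over all of them. The BAM statistics and present calls of the study were not used here. With 4 residual degrees of freedom, the number of arrays limits the precision. Each array is a separate rat.

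Gene names came from GEO's platform annotation, with symbols updated by gene identifier: 12783 had 1 gene, 312 several and 2771 none. A gene was represented by its brightest probe set. Ratios are of group mean signals unless stated otherwise. Named were all probe sets of the members, pathway, transport and cofactor genes by value or count, and up to 4 genes that passed in each comparison list. Members and lists were chosen with earlier results of these data known. Acad8, Mmut, Slc43a1, Hlcs, Btd, Mmab, Lipt1, Dlat and Fh, which were also listed, were not analysed here. Simulated data with known changes, whose outcome is not given here, were used to test the procedure. Their noise was independent for each probe set and array, so they do not cover effects that an array's probe sets share. Partner chains, Dld, Ppm1k, Acadsb, Echs1, Slc25a44, Slc7a5, Pdk1, Pdk2, Pdk4, Cs and Lpl did not pass and are given by value outside that rule. They were chosen after their values were seen. Alternatives were other normalizations, offsets, filters and variance settings, the replicate block, arrays left out in turn, the mean over probe sets and, chosen after seeing the data, the GAPDH 3′/5′ ratio as a covariate.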

Additional observations from a re-analysis of the deposited data

How the results depend on the processing

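No member probe set passed under any of the 17 alternatives (0 of 186 fits, lowest adjusted p = 0.066). The median of the member genes, -0.10 with all arrays, ran from -0.24 to 0.02 with 1 array left out and from -0.17 to -0.09 under the other alternatives. Some members' differences changed sign with 1 array left out, without passing: Aldh6a1 (-0.23 to 0.05, and -0.38 to 0.10 on its second probe set), Bcat2 (-0.32 to 0.06), Bckdhb (-0.52 to 0.02), and Hibadh (-0.26 to 0.04). That of Dbt ran from 0.00 to 0.82. Slc7a8 passed under all 16 alternatives run for it. Over all probe sets, 314 were higher and 331 lower. With each array left out in turn these counts ran from 133 to 226 and from 179 to 235, and with no filter 200 were higher and 227 lower. They were larger with the GAPDH ratio as a covariate, at 428 higher and 419 lower, and after quantile normalization, at 336 and 373. The replicate number as a block gave 162 higher and 170 lower. The deviations of same-numbered arrays correlated at 0.0977, -0.195 and -0.068. With 3 arrays per group this cannot show whether the numbers pair the rats, and the labels do not say. Under the block 1 transport or regulator gene and 1 beta-oxidation gene passed. Without a filter, or without the trend in the variance prior, 1 transport or regulator gene, 1 beta-oxidation gene and 0 cycle genes passed. After scaling to the same median 2 transport or regulator genes and 1 beta-oxidation gene passed, and array weights also left 2 transport or regulator genes. With arrays left out, 1 to 3 transport or regulator genes, 0 to 2 beta-oxidation genes and 0 to 1 cycle genes passed. In the sister complexes 1 gene was higher after quantile normalization, with an offset of 64, with a stricter filter (60th percentile) or with the GAPDH ratio as a covariate; with arrays left out, 0 to 1 were higher and 0 to 1 lower. The cause of these changes was not tested.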
